A study of Rattus norvegicus with 13 samples.

Results

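The corticosteroid receptors and a set of their target genes were described in the rat hypothalamus: Nr3c1 and Nr3c2, which encode the glucocorticoid and mineralocorticoid receptors, the steroid enzyme gene Hsd11b1, and the 7 target genes Fkbp5, Sgk1, Tsc22d3, Ddit4, Pdk4, Zbtb16 and Klf9. The 10 genes were chosen by name, not by a rule on their values, though with earlier results of these data known, from a table of 17366 rows, and each was found as 1 row under its own symbol. RNA came from whole hypothalamus of 13 rats (Rattus norvegicus), 6 fed a high-fructose diet (55% fructose) and 7 fed standard chow (0.30% fructose), both from postnatal day 25. After an overnight fast begun on day 79, each animal was injected with either glucose (2 g per kg) or saline on day 80 and its brain was taken 1 h later; 31 animals of the whole cohort had glucose and 29 had saline. The labels used here do not say which injection each of these 13 rats had, nor the strain, sex or cage mates, so any effect of injection lies within the spread of each diet or in the difference between them.

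Corticosterone, the main glucocorticoid of the rat, crosses into brain cells and binds both receptors, the mineralocorticoid receptor with the higher affinity. The receptors wait in the cytoplasm in a complex with heat shock proteins and immunophilins, move to the nucleus with hormone, and bind response elements near target genes. In the hypothalamus this signal closes the feedback loop that restrains the stress hormone axis, and the transcripts of its targets are widely used as a readout of glucocorticoid action.

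Expression was measured as FPKM, a fragment count divided by transcript length and by the size of the library, so levels of different genes can be set side by side. Total FPKM lay between 556902 and 608058 per rat and 13156 to 13384 rows were above 0. Read depth is unknown, so the precision of each value rests on the spread between rats. Of 10 neuropeptide genes that mark hypothalamic nuclei all were detected, with summed levels of 1612 to 7074 FPKM in fructose rats and 4126 to 9586 FPKM in chow rats, and 0 of 10 passed the diet test described below (limma, 1 at an unadjusted p under 0.05). Their median log2 fold change, fructose over chow, was -0.50, and only Pomc (0.35) and Ghrh (0.24) were above 0. The spread was wide, with -1.99 ± 1.44 (SE) for Oxt, -1.61 ± 1.53 for Avp and -0.71 ± 0.29 for Pmch. These results therefore do not show equal levels. Agrp and Ghrh were listed at 0 in at least 1 fructose rat. Marker lists of other tissue did differ between diets: 9 of 9 tested midbrain dopamine neuron genes and 4 of 5 blood cell genes were higher on fructose, 5 of 8 meningeal genes and 2 of 10 astrocyte genes (Gfap and Aqp4) were higher, and 7 of 12 thalamus genes were lower with 1 higher, beside 1.66% of all genes tested higher and 2.27% lower. Of the tested oligodendrocyte, microglia, endothelium and choroid plexus genes 0 passed (limma, 1, 3, 1 and 1 at an unadjusted p under 0.05). Their part in the results below was not tested. In bulk tissue, fewer cells of a type and less RNA per cell cannot be told apart.

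The first question was whether levels of these genes differed between the diets. None of the 10 passed the test for a diet difference, and the plot of levels by rat shows overlapping diets for every gene. Values were tested as log2(FPKM + 0.5) with limma over the 11837 genes averaging 0.5 FPKM or more, and a gene passed at an adjusted p under 0.05. All 10 members were among the genes tested. By this rule 0 of 10 members passed, beside 3.94% of all genes tested (1.66% higher and 2.27% lower on fructose), and 1, Klf9, had an unadjusted p under 0.05, beside 19.2% of all genes. By the exact permutation test per gene 0 of 10 had an unadjusted p under 0.05, beside 18.8% of all genes; after adjustment that test called 0 of all 11837 genes, so it says nothing about the members. The 10 adjusted p-values lay between 0.257 and 0.959. The log2 fold change was negative for 8 members (Ddit4 among them, which was positive with quantile normalization or array weights) and positive for 2, with a median of -0.08 and a median size of 0.11, against 0.00085 and 0.090 over all genes tested. In 0 of 10 members did the rats of one diet lie wholly above or below those of the other, which 1.61% of all genes showed.

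**Figure D1:**
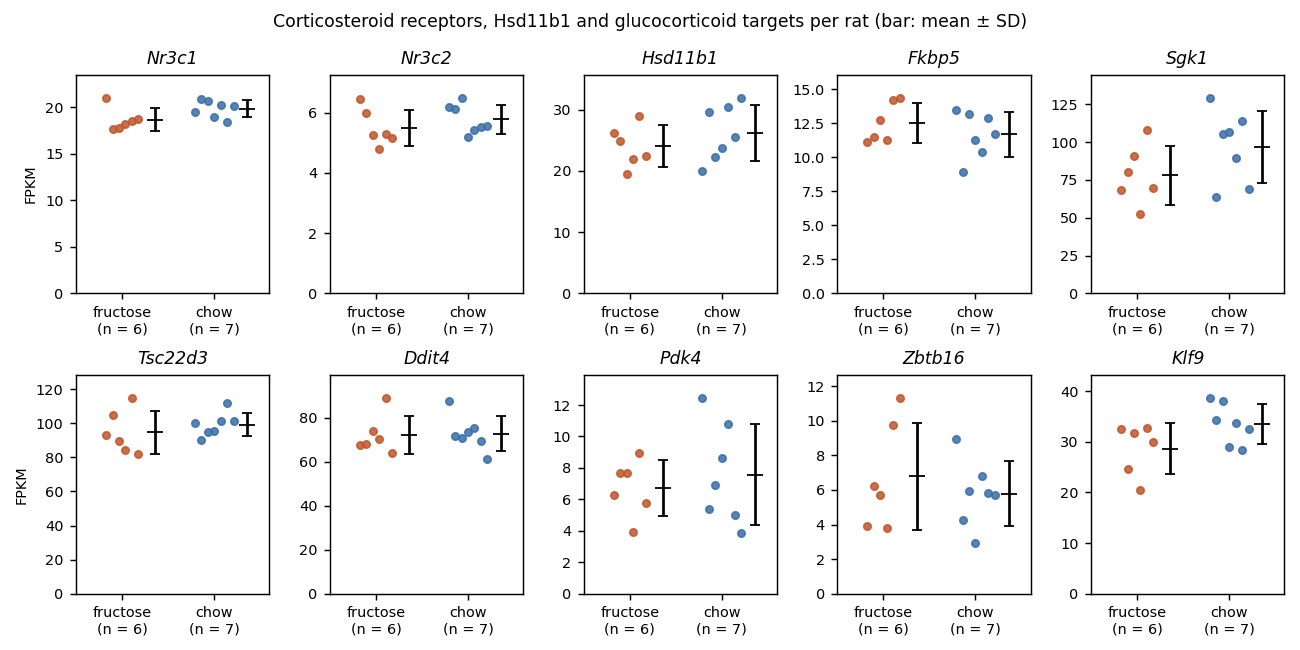
Level of each of the 10 genes in FPKM (vertical axis, starting at 0) in the 6 fructose rats and the 7 chow rats, with 1 point per rat and a bar at the mean ± SD. The diets overlap for every gene, and Pdk4 and Zbtb16 show the widest spread between rats relative to their level.

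Of the receptors, Nr3c1 stood at 17.7, 18.3 and 21.01 FPKM (lowest, median and highest) in fructose rats, against 18.4, 20.1 and 20.9 FPKM in chow rats. Of the 6 fructose rats 3 lay below all chow rats and 1, replicate 1, lay above all of them. The mean was 18.7 ± 1.22 FPKM (SD, n = 6) on fructose and 19.8 ± 0.922 FPKM (SD, n = 7) on chow, with -0.09 ± 0.05 (SE) as the log2 fold change (95% interval -0.20 to 0.02, limma adjusted p = 0.396). Among all genes tested the spread of Nr3c1 between rats of a diet was narrow: its within-diet SD, 0.077 on the log2 scale, was larger than that of 7.31% of genes.

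Nr3c2 was lower in level, at 4.81, 5.28 and 6.46 FPKM in fructose rats and 5.18, 5.54 and 6.49 FPKM in chow rats, and 2 of 6 fructose rats lay below all chow rats. Its log2 fold change was -0.07 ± 0.08 (SE, limma adjusted p = 0.712, 95% interval -0.24 to 0.10). Every rat had a higher FPKM for Nr3c1 than for Nr3c2. The ratio of Nr3c1 to Nr3c2 was 2.95, 3.44 and 3.78 in fructose rats (lowest, median, highest) and 3.15, 3.42 and 3.74 in chow rats. Its mean was 3.42 ± 0.296 (SD, n = 6) on fructose and 3.45 ± 0.236 (SD, n = 7) on chow, and the log2 ratio differed by -0.014 (exact two-sided permutation p = 0.822).

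Hsd11b1 encodes an oxidoreductase that regenerates active corticosterone from its inert keto form inside cells. It stood at 19.5, 23.6 and 29.0 FPKM in fructose rats and 19.9, 25.5 and 31.9 FPKM in chow rats, and the ranges almost coincided. The log2 fold change was -0.12 ± 0.11 (SE, limma adjusted p = 0.643, 95% interval -0.36 to 0.13). Hsd11b2, which encodes the enzyme that inactivates corticosterone, was near the lower limit of the tested genes, at 0.639 ± 0.25 FPKM (SD, n = 6) on fructose and 0.715 ± 0.172 FPKM (SD, n = 7) on chow (limma adjusted p = 0.775).

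Among the targets, Tsc22d3, Sgk1 and Ddit4 had the highest levels. Tsc22d3 encodes the glucocorticoid-induced leucine zipper protein, which restrains inflammatory transcription factors. It stood at 82.0, 91.2 and 115 FPKM in fructose rats and 89.9, 100.3 and 112 FPKM in chow rats, with 3 fructose rats below all chow rats and 1 above (log2 fold change -0.07 ± 0.08, SE, limma adjusted p = 0.659). Sgk1 encodes the serum- and glucocorticoid-regulated kinase, a regulator of ion channels and transporters. It stood at 52.2, 74.8 and 108 FPKM in fructose rats and 63.9, 105 and 129 FPKM in chow rats. Of 6 fructose rats 5 lay below the chow mean, and the log2 fold change of -0.30 ± 0.18 (SE) was the largest in size among the 10 members (limma adjusted p = 0.382). The 95% interval of -0.68 to 0.08 shows how wide the margin is for this gene.

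Ddit4, an inhibitor of the growth kinase complex mTOR that glucocorticoids and energy stress induce, stood at 63.9, 69.3 and 88.9 FPKM in fructose rats and 61.3, 71.5 and 87.5 FPKM in chow rats. Its log2 fold change, -0.012 ± 0.081 (SE, limma adjusted p = 0.959), was the smallest of the 10, and its sign turned under some alternative settings. Klf9 encodes a Krüppel-like transcription factor induced by glucocorticoid and thyroid hormone. It stood at 20.5, 30.8 and 32.7 FPKM in fructose rats and 28.4, 33.8 and 38.6 FPKM in chow rats. All 6 fructose rats lay below the chow mean and 2 lay below every chow rat. The log2 fold change was -0.24 ± 0.11 (SE, unadjusted p = 0.0486, adjusted p = 0.257, limma), and the exact two-sided permutation test gave an unadjusted p of 0.0758.

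Fkbp5 encodes an immunophilin that lowers the hormone affinity of the glucocorticoid receptor. It stood at 11.1, 12.1 and 14.4 FPKM in fructose rats and 8.96, 11.7 and 13.5 FPKM in chow rats, with 2 fructose rats above all chow rats (log2 fold change 0.10 ± 0.10, SE, limma adjusted p = 0.636). Pdk4, the kinase that switches off pyruvate dehydrogenase and so spares glucose in fasting, stood at 3.92, 6.95 and 8.96 FPKM in fructose rats and 3.85, 6.91 and 12.4 FPKM in chow rats (log2 fold change -0.11 ± 0.24, SE, limma adjusted p = 0.863). Zbtb16, a zinc finger transcription factor, stood at 3.81, 5.96 and 11.3 FPKM in fructose rats and 2.95, 5.85 and 8.95 FPKM in chow rats (log2 fold change 0.17 ± 0.26, SE, limma adjusted p = 0.788). The medians of both genes were close between diets while single rats ranged widely.

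**Figure D2:**
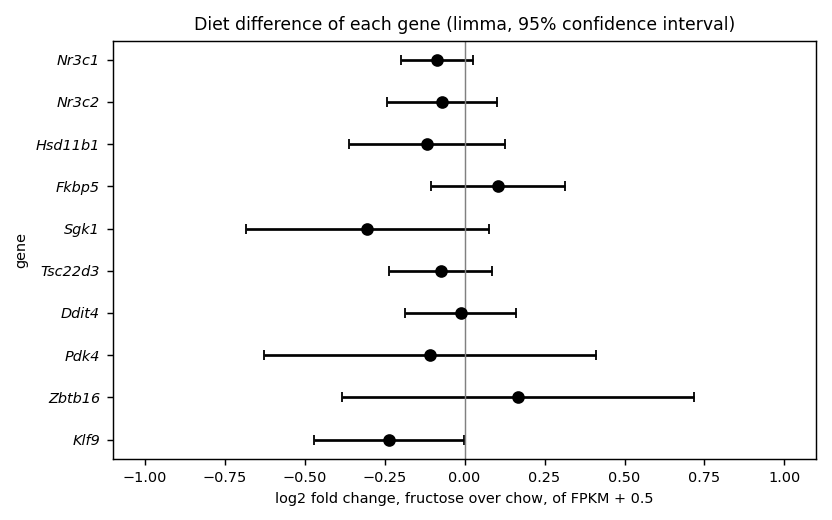
Log2 fold change of each gene, fructose over chow, on the log2(FPKM + 0.5) scale (horizontal axis) with its limma 95% confidence interval. The interval spans 0 for 9 of the 10 genes and ends at -0.0016 for Klf9. It is narrowest for Nr3c1 and widest for Zbtb16.

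The target genes differed in how much they varied between rats of 1 diet. The highest rat had 2.97 times the Zbtb16 level of the lowest on fructose and 3.03 times on chow. For Pdk4 the ratio was 2.28 on fructose and 3.23 on chow, and for Sgk1 2.07 and 2.02. Within-diet SDs of Zbtb16, Pdk4 and Sgk1 on the log2 scale, 0.53, 0.50 and 0.37, exceeded those of 97.0%, 96.3% and 90.5% of all genes tested. Those of Tsc22d3 (0.15), Ddit4 (0.16) and Fkbp5 (0.19) were near the middle of all genes. The genes compared were not matched for level. By mean FPKM Zbtb16 and Pdk4 lay above only 28.1% and 31.2% of genes tested, and Sgk1 above 89.7%. In order of mean FPKM over the 13 rats, the members ran Tsc22d3, Sgk1, Ddit4, Klf9, Hsd11b1, Nr3c1, Fkbp5, Pdk4, Zbtb16 and Nr3c2. Tsc22d3 lay above Sgk1 in 5 of 6 fructose rats and 3 of 7 chow rats, Pdk4 above Zbtb16 in 4 of 6 and 5 of 7, and Zbtb16 above Nr3c2 in 4 of 6 and 4 of 7, so these neighbours did not keep 1 order. Ddit4 lay above Klf9, Hsd11b1 above Nr3c1 and Nr3c1 above Fkbp5 in all 13 rats.

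Other genes of the pathway were taken from 5 lists. Of 13 tested receptor chaperones 1 fell on fructose and 12 did not pass (list median log2 fold change -0.08), beside 2.27% of all genes lower. The 1 was Hspa4, a heat shock protein of the Hsp110 group that acts as an exchange factor for its partners, at 88.6 ± 4.7 FPKM (SD, n = 6) on fructose and 101 ± 5.37 FPKM (SD, n = 7) on chow (log2 fold change -0.19 ± 0.05, SE, limma adjusted p = 0.0394). Hsp90aa1, the inducible form of the chaperone that holds the receptors ready for hormone, stood at 623 ± 31.8 FPKM on fructose and 679 ± 50.5 FPKM on chow (limma adjusted p = 0.243), and the phosphatase Ppp5c at 88.2 ± 3.6 and 93.4 ± 4.85 FPKM (0.338). Of 12 coregulators 0 passed (limma, list median -0.05), with 3 at an unadjusted p under 0.05, beside 19.2% of all genes. The lowest p was that of the corepressor Ncor1, at 17.3 ± 1.31 FPKM on fructose and 20.3 ± 2.3 FPKM on chow (limma adjusted p = 0.11). It did pass without chow replicate 1 (adjusted p = 0.0474) and with array weights (0.0404). Smarca4, a chromatin remodelling ATPase, and Carm1, an arginine methyltransferase, followed (limma adjusted p = 0.256 and 0.186).

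Of 5 tested genes of steroid metabolism and access 0 passed (limma, 0 at an unadjusted p under 0.05), among them Srd5a1, a steroid reductase, at 27.5 ± 4.59 FPKM (SD, n = 6) on fructose and 23.7 ± 3.73 FPKM (SD, n = 7) on chow (adjusted p = 0.35), and the efflux pump Abcb1a (0.659). Serpina6, the plasma corticosteroid-binding globulin, was listed at 0 in all rats. Among receptors for other steroids, Pgr, the progesterone receptor, stood at 2.62 ± 0.656 FPKM (SD, n = 6) on fructose and 2.33 ± 0.74 FPKM (SD, n = 7) on chow (limma adjusted p = 0.718). Esr1, an oestrogen receptor, stood at 0.603 ± 0.387 FPKM on fructose and 0.53 ± 0.141 FPKM on chow (limma adjusted p = 0.932), so neither passed.

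Of 19 further glucocorticoid-responsive genes 3 fell on fructose and 0 rose, while the other 16 did not pass (list median log2 fold change 0.013), beside 2.27% of all genes lower and 1.66% higher. What lowered these 3 was not tested, and genes of such a list can also be induced by other stimuli. Fam107a, an actin-associated protein, stood at 28.8 to 72.5 FPKM in fructose rats and 60.1 to 111 FPKM in chow rats (log2 fold change -0.94 ± 0.18, SE, limma adjusted p = 0.0213). Dusp1, a phosphatase of stress kinases that is also an immediate early gene, stood at 13.3 to 29.5 and 25.0 to 53.8 FPKM (-0.78 ± 0.20, adjusted p = 0.0436). Cdkn1a, a cell cycle inhibitor that p53 induces, stood at 5.87 to 11.4 and 9.71 to 12.7 FPKM (-0.51 ± 0.13, adjusted p = 0.0413). The diets overlapped for all 3. All 3 calls were lost with no filter on low genes (limma adjusted p = 0.0671 to 0.123) and with some single rats left out. The exact permutation test gave them adjusted p = 0.0966 to 0.127. After adjustment that test called 0 of all 11837 genes, so it says nothing about these 3. Fam107a lost its call without fructose replicate 4 (adjusted p = 0.0569) and without chow replicate 2 (0.0503). Dusp1 lost it when any of fructose replicates 2, 3, 4 and 6 or chow replicates 2, 3, 4, 5 and 7 was left out (0.0550 to 0.105), and Cdkn1a for these and for fructose replicate 1 (0.0529 to 0.0977). Hspa4 lost its call when any of fructose replicates 2, 3, 4 and 6 or chow replicates 2, 4, 5 and 7 was left out (0.0638 to 0.0953). It also lost it with no filter (0.0645) and with quantile normalization (0.101). Its exact permutation adjusted p was 0.0821, which has the same limit.

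The second question was whether the 7 targets varied together among rats of the same diet. Most pairs did so in direction, though no single pair passed the test. Within the fructose diet Pearson's r of log2(FPKM + 0.5) was above 0 in 21 of 21 pairs, with a median of 0.55 and a range of 0.13 to 0.96. Within chow it was above 0 in 18 of 21 pairs, with a median of 0.39 and a range of -0.44 to 0.90. The 3 pairs below 0 all held Tsc22d3, with Ddit4, Pdk4 and Klf9. Over all pairs of tested genes the median r was -0.001 on fructose and 0 on chow, and 49.9% of pairs were above 0 in each diet. The pairs share their rats and libraries, so they are not independent of each other.

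**Figure D3:**
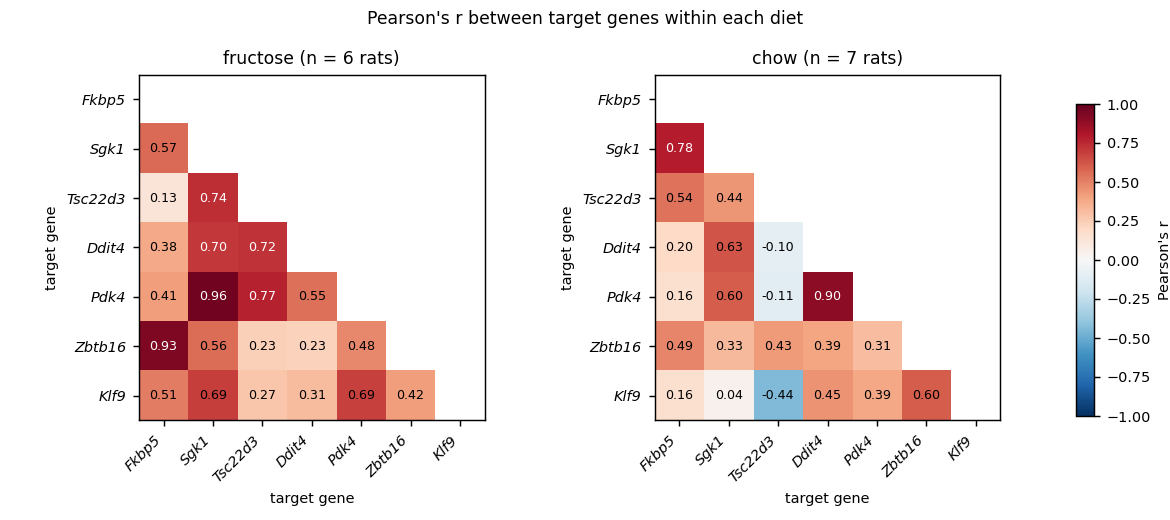
Pearson's r between each pair of the 7 target genes within the 6 fructose rats (left) and within the 7 chow rats (right), with blue for negative and red for positive values. Every pair on fructose is positive, and on chow the 3 negative pairs all lie in the column of Tsc22d3.

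With exact two-sided permutation tests over pairings and adjustment over the 42 tests, 0 pairs passed by Pearson's r and 0 by Spearman's rho. At an unadjusted p under 0.05 there were 2 pairs in each diet by Pearson's r, and 2 on fructose and 1 on chow by Spearman's rho. On fructose the closest pair was Sgk1 and Pdk4 (r = 0.965, exact permutation p = 0.00417, adjusted p = 0.0875; rho = 0.943, p = 0.0167, adjusted p = 0.35). Without the 2 rats farthest from the median Sgk1 level r was 0.89. Fkbp5 and Zbtb16 followed (r = 0.933, exact permutation p = 0.0139, adjusted p = 0.194; rho = 0.886, p = 0.0333, adjusted p = 0.467), with r = 0.635 without the 2 rats farthest from the median of Fkbp5.

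On chow the closest pair was Ddit4 and Pdk4 (r = 0.898, exact permutation p = 0.00119; rho = 0.964, p = 0.00278, adjusted p = 0.117). Its adjusted p by Pearson's r was 0.05 (exact permutation), which is at and not under the threshold. With a pseudocount of 1 or median-ratio scaling it passed (exact permutation adjusted p = 0.0333 and 0.0417). Without the 2 rats farthest from the median of Ddit4 r was 0.927. Fkbp5 and Sgk1 followed (r = 0.784, exact permutation p = 0.0385, adjusted p = 0.404; rho = 0.75, p = 0.0663, adjusted p = 0.597), with r = 0.408 without the 2 rats farthest from the median of Fkbp5, which also narrows its range, and 0.583 to 0.932 with single chow rats left out. In the other diet the same pairs stood at r = 0.603 for Sgk1 and Pdk4 on chow, 0.489 for Fkbp5 and Zbtb16 on chow, 0.554 for Ddit4 and Pdk4 on fructose and 0.566 for Fkbp5 and Sgk1 on fructose. The difference between diets was not tested.

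**Figure D4:**
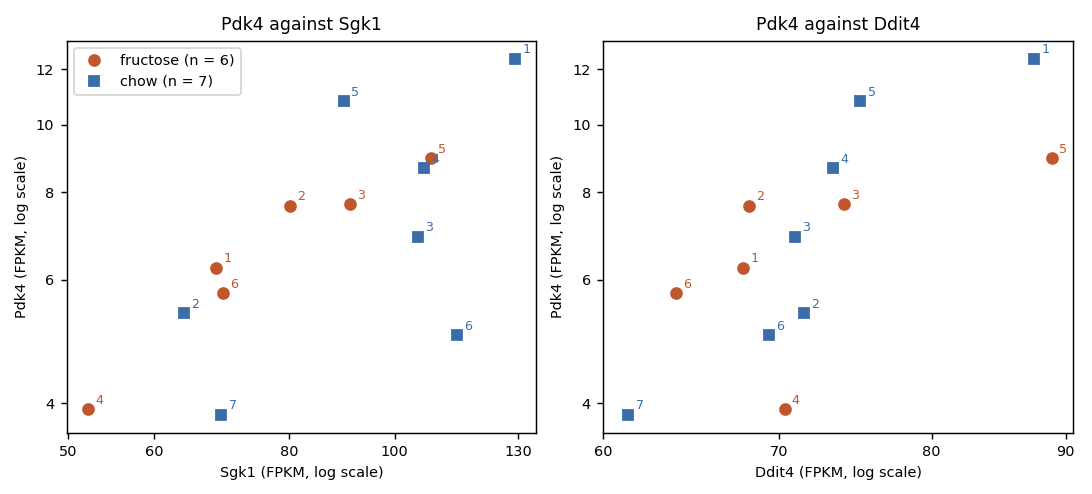
Pdk4 against Sgk1 (left) and against Ddit4 (right), both in FPKM on log axes, for the 6 fructose rats (circles) and the 7 chow rats (squares), with the replicate number beside each point. Chow replicate 1 is highest for all 3 genes among chow rats, and fructose replicate 5 among fructose rats.

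Single rats carried much of this shared variation. Chow replicate 1 was the highest chow rat for 6 of 7 targets (all but Tsc22d3) and above the chow mean for 7 of 7. Fructose replicate 5 was the highest fructose rat for 5 of 7 and above the mean for 7 of 7, and fructose replicate 4 was below the mean for 7 of 7. Without chow replicate 1 the median r over the 21 chow pairs was 0.041 and 11 pairs were above 0. Without fructose replicate 5 the median r over the fructose pairs was 0.29 with 15 above 0, and without fructose replicate 4 it was 0.33 with 17 above 0. The other rats, left out in turn, gave medians of 0.54 to 0.74 on fructose and 0.31 to 0.54 on chow. Levels of other tissue differed between the rats with the highest target levels. Among fructose rats replicate 5 had the highest summed blood (2217 FPKM), thalamus (923 FPKM), microglia (286 FPKM) and choroid plexus (39.8 FPKM) markers and the lowest hypothalamic (1612 FPKM), meningeal (35.9 FPKM) and astrocyte (3057 FPKM) markers. Among chow rats replicate 1 had the highest hypothalamic markers (9586 FPKM) and the lowest blood (238 FPKM), thalamus (644 FPKM) and oligodendrocyte (11481 FPKM) markers. The rats that led the targets in each diet thus lay at opposite ends for the summed hypothalamic, blood and thalamus markers. A sum follows its most abundant genes. In the thalamus sum Calb2, the 1 gene of that list higher on fructose, averaged 382 FPKM on fructose and 270 FPKM on chow. The median sums were 730 and 970 FPKM. In the hypothalamic sum Pmch averaged 3494 and 5107 FPKM, beside median sums of 4241 and 5954 FPKM. The leading rats were alike for other lists. Meningeal markers were low in both, with chow replicate 1 at rank 6 of 7 (25.4 FPKM). Microglia markers were high in both, with chow replicate 1 at rank 2 of 7 (250 FPKM). The part of these markers in the shared variation was not tested.

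**Figure D5:**
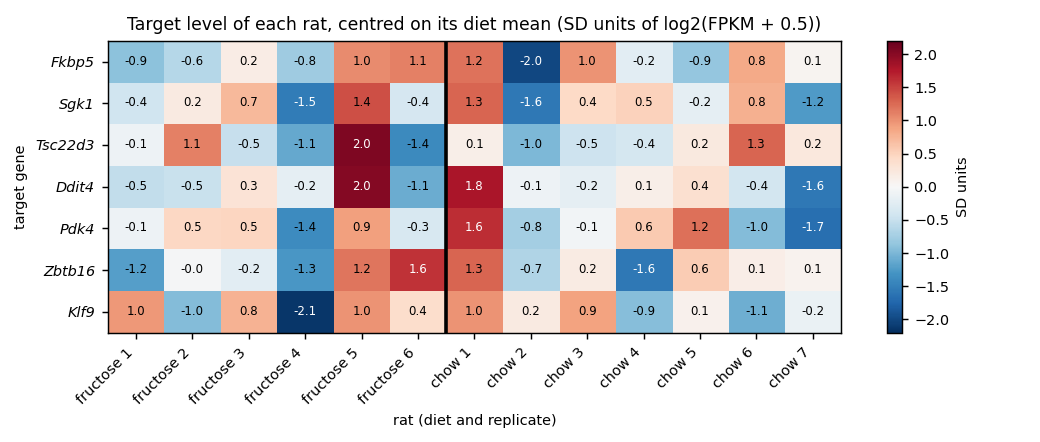
Level of each of the 7 target genes (rows) in each rat (columns, fructose left of the black line and chow right of it) as its distance from the mean of its diet, in units of the within-diet SD of log2(FPKM + 0.5). The columns of fructose replicate 5 and chow replicate 1 are above the mean for 7 of 7 genes, and that of fructose replicate 4 is below it for 7 of 7.

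Pairs with a receptor or Hsd11b1 were mixed in sign. Over the 24 pairs that hold one of these 3 genes, a set added after the data were seen, r was above 0 in 15 pairs on fructose (median 0.23) and in 10 on chow (median -0.096). Adjusted over these 48 exact permutation tests 0 pairs passed by either measure, with 2 at an unadjusted p under 0.05 by Pearson's r and 1 by Spearman's rho. Those 2 were on chow. Hsd11b1 and Sgk1 ran opposite (r = -0.855, exact permutation p = 0.0167, adjusted p = 0.557; rho = -0.75, p = 0.0663), with r = -0.709 without the 2 rats farthest from the median of Hsd11b1. Nr3c2 and Klf9 ran together (r = 0.84, exact permutation p = 0.0232, adjusted p = 0.557; rho = 0.786, p = 0.048), with r = 0.611 without the 2 rats farthest from the median of Nr3c2. Picked out after the values were seen, Hsd11b1 had an r above 0 with 7 of 7 targets on fructose (0.078 to 0.764) and below 0 with 7 of 7 on chow (-0.855 to -0.0041). That difference between diets was not tested, and it rested partly on single rats. Without the 2 rats farthest from the median of Hsd11b1, r on chow was above 0 with Ddit4 (0.418), Pdk4 (0.133), Zbtb16 (0.269) and Klf9 (0.041). On fructose it was then below 0 with Fkbp5 (-0.509) and Zbtb16 (-0.336). With the other targets the sign stayed. Nr3c1 and Nr3c2 had an r of 0.579 on fructose and 0.558 on chow (exact permutation adjusted p = 0.9 in each).

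Genes outside the 10 were ranked by how closely they followed the mean of the 7 targets over the 13 rats, after each value was centred on its diet mean. The 5 closest were Fmo2, a flavin-containing monooxygenase (r = 0.90), Pdzd3, a scaffold protein (0.86), Pcdh20, a protocadherin (0.85), Arl13b, a small GTPase of cilia (0.85), and Azin1, which stabilises the polyamine enzyme ornithine decarboxylase (0.80). Predicted symbols, such as those starting with LOC or RGD, and rows that join several genes were passed over. The 5 are by choice the highest of the other tested genes, so their r is a description. The target mean itself was most extreme in fructose replicates 5 (1.37) and 4 (-1.20) and chow replicate 1 (1.18), in SD units. Fmo2 stood at 1.05 to 2.64 FPKM in fructose rats and 0.657 to 2.39 FPKM in chow rats. For the list of further glucocorticoid-responsive genes, the mean level of its 19 members had an r of 0.63 with the target mean on the same measure. Chosen after their values were seen, Errfi1, an inhibitor of growth factor receptors (0.74), Arrdc2, an arrestin-domain protein (0.70), and Nfkbia, an inhibitor of NF-kB (0.69), had the highest r of that list. Others, such as Angptl4 (-0.078), Mt1a (-0.049) and Lcn2 (0.018), lay near 0. The genes of that list that fell on fructose had r of -0.10 (Dusp1), 0.068 (Fam107a) and 0.26 (Cdkn1a). The marker lists of blood, astrocytes, oligodendrocytes and microglia had r of 0.0047, 0.0057, 0.087 and 0.073 with the target mean, and those of the meninges, endothelium, hypothalamus, thalamus, midbrain dopamine neurons and choroid plexus -0.49, -0.27, -0.22, -0.041, 0.19 and 0.21. Closest to Nr3c1, by the same choice, were Kcna1, a potassium channel subunit (r = 0.94), Tmem56 (0.93), Zfp458 (0.92), Lrrc8b (0.92), a subunit of volume-regulated anion channels, and Ube4a (0.92), a ubiquitin ligase.

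Promoters are shown for Sgk1, Pdk4 and Ddit4, the targets of the closest pairs, and for Klf9 as the member with the lowest p between diets. RefSeq promoter windows on GRCr8, an assembly other than the one used for the FPKM, were matched for 7 of the 10 members, 12 windows in all since some genes have several starts. The 150 bases before the start are given 5′ to 3′, with capitals for TATAAA and GTAAACA.
Sgk1, chr1:24804832-24804981, minus strand: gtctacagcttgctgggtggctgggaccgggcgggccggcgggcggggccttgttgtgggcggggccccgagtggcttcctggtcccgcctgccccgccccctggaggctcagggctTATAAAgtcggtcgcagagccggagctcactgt
Pdk4, chr4:34568330-34568479, minus strand: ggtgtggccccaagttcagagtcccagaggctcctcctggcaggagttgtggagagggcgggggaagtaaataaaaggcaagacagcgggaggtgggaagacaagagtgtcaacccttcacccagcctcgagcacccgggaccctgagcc
Ddit4, chr20:28437038-28437187, minus strand: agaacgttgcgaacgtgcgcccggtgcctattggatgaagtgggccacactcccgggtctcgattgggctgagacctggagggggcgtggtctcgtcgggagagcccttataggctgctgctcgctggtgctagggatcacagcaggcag
Klf9, chr1:230126496-230126645, plus strand: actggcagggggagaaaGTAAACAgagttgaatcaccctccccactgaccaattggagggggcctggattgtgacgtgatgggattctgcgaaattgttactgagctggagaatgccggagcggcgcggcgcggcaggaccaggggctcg
In the 250 bases before the start, the glucocorticoid response element (AGAACA and TGTTCT, 3 bases apart), its relaxed form (GNACA and TGTNC, 3 bases apart) and the single arm AGAACA were searched on both strands. The arm is contained in the full element, and the full element in the relaxed form. They were found in 0 of 12 member windows, and in 0.012%, 0.373% and 17.5% of the 33469 windows of all genes. No match says only that these letters are not in this window. TATAAA, the core of the TATA box, was found on either strand in 3 of 12 member windows, those of 2 Sgk1 starts and 1 Tsc22d3 start, and in 12.9% of all windows. In the Sgk1 window shown it began 33 bases before the start. GTAAACA, the core bound by forkhead factors of the FOXO group, was found in 2 member windows, of Klf9 and Tsc22d3, and in 3.21% of all windows.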

How the data were processed

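RNA of 13 whole hypothalami was lysed with Trizol, purified with an RNeasy kit and made into mRNA libraries from total RNA, per the labels' protocols. The deposited table holds FPKM, a column for each rat. Genome build rn5 and the tools STAR 2.3.0e, Cufflinks 2.1.1 and Cuffdiff are named in the submitters' processing notes, with no settings, roles or scaling stated. Assignment of fragments to isoforms and the treatment of shared reads can move FPKM of single genes. Columns were matched to rats by title and groups taken from the diet label. Replicate numbers only name a rat. The first number in each title was lower in every chow rat than in any fructose rat, and chow replicates 1 and 2 share theirs. Its meaning is not stated, so whatever it marks cannot be told apart from diet. The number of reads per library is not used here. The lowest FPKM values relative to those of chow replicate 1 had a median ratio of 0.864 to 1.21, a rough guide to relative depth.

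Genes averaging 0.5 FPKM or more were tested as log2(FPKM + 0.5), a scale that understates changes of low genes, with limma 3.58.1 in R 4.3.3 (trended empirical Bayes, two-sided, Benjamini-Hochberg over 11837 genes). Rats are separate animals, but cage mates may not be independent. The ratio and correlations used exact permutation tests over 1716 splits of the rats, or 720 and 5040 pairings on fructose and chow. Tested on simulated data with 11794 genes, the fructose against chow fit recovered 72.7% of log2 changes of 0.5 and 93.9% of changes of 1. Each gene was drawn independently from its own mean and within-diet SD, and 197 tested genes picked at random were changed. Variation shared between genes was left out. The shares average over genes, so they do not give the chance of a call for genes of wide spread such as Zbtb16, Pdk4 and Sgk1. Alternatives were other pseudocounts, filters, scalings and tests, and leaving out each rat. The members and the 15 gene lists (149 of 155 symbols matched) were chosen with earlier results of these data known. Genes named from a pathway list are those that passed or, with fewer than 3, the 3 with the lowest p; others are said to be chosen after their values were seen. A list level averages log2(FPKM + 0.5) across the tested genes of the list, the target mean averages values standardized per gene within diet, and summed markers are sums of FPKM. One gene of the pathway lists is not reported here.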

Additional observations from a re-analysis of the deposited data

Results flagged for a closer look

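Nr3c1 in fructose replicate 1 lay apart from the other fructose rats, at 21.01 FPKM against 17.7 to 18.8 FPKM in the other 5. It was the only sample found among 52 sets of values tested in this way (Dixon's criterion, which by chance picks out about 1 set in 20). Without this rat the Nr3c1 log2 fold change was -0.12 (limma unadjusted p = 0.0246, adjusted p = 0.169), so the gene did not pass either way.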

How the results depend on the processing

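The count of members passing the diet test was 0 under each of the 22 alternatives, and the lowest adjusted p of any member was 0.169 (Nr3c1 without fructose replicate 1). The count over all genes, 466, was 130 with no filter, 1019 with array weights and 0 by exact permutation (2223 at an unadjusted p under 0.05), and lay between 83 and 859 with 1 rat left out. Signs turned for small differences. Ddit4 stood at 0.017 with quantile normalization and 0.0035 with array weights, and between -0.073 and 0.033 with 1 rat left out. Pdk4 lay between -0.24 and 0.024, the log2 ratio of Nr3c1 to Nr3c2 between -0.044 and 0.027, and Esr1 between -0.11 and 0.13 with 1 rat left out, with Esr1 at -0.028 under quantile normalization. The cause was not tested. Without the filter, Hspa4, Dusp1, Fam107a and Cdkn1a lost their calls (limma adjusted p between 0.0645 and 0.123), and so did Hspa4 with quantile normalization (0.101). Their exact permutation adjusted p lay between 0.0821 and 0.127, but that test called 0 of all genes. In a further check each pair was taken without the 2 rats farthest from the median of its first gene. The rats left out thus differ between pairs, 4 fructose or 5 chow rats remain, and the range is narrowed. The median r among targets on fructose was 0.28 by this check and 0.29 to 0.74 with 1 rat left out. On chow it was 0.12 by this check and 0.041 to 0.54 with 1 rat left out, the latter with 11 to 21 pairs above 0. With a pseudocount of 1 or median-ratio scaling, 1 chow pair passed, Ddit4 and Pdk4. No paired analysis was possible because replicate numbers follow accession order and tie no rats together. Read depth is unknown, so what it limits was not tested.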
